A study of Drosophila melanogaster with 35 samples.

Results

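Endocycling follicle cells of the wild-type Drosophila ovary were compared with mitotic follicle cells of the same strain in 13391 windows of 100 kb, the whole set of windows on scaffolds 2L, 2R, 3L, 3R, X and 4. The comparison rests on 4 of the 35 samples in the series, 2 S phase samples of each cell population, and was taken as the endocycling value minus the mitotic value in each window. Follicle cells, the epithelium around the developing egg, came from adult OregonR females. Their nuclei were stained for DNA and sorted by DNA content, between 4C and 8C for the endocycling population and between 2C and 4C for the mitotic population (C is the DNA content of a haploid genome). The mitotic gate is defined by DNA content alone, so it can also hold follicle cells in their first endocycle. Rif1- follicle cells, which carry the alleles Rif1 1 and Rif1 2 over each other and were sorted through the same gates, are set beside the wild type at the end, with 2 S phase samples per population. Wild-type (yw) wing discs of larvae give a non-ovarian level where one is needed. Wing disc libraries, the G1 phase control among them, were made with another kit and read as shorter single ends. A gap in level between follicle cells and wing discs therefore cannot be told apart from library kit, read length and mapping. Each value is a log2 ratio of S phase reads to G1 reads (S/G1), and the deposited table holds 1 mean per population and window without the values of the single samples or the read counts. No standard deviation over samples, interval or test could therefore be given, and the differences are descriptions of these means. Windows start every 10 kb, so neighbours share most of their sequence and are not replicates.

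In S phase cells, sequences that replicate early are present at more copies than sequences that replicate late, so a high S/G1 is read as early replication timing (RT) and a low S/G1 as late. Follicle cells first divide and then switch to endocycles, in which S phases follow each other without mitosis. In polyploid fly cells, pericentric heterochromatin often stays at a lower copy number than the rest of the genome, while the chorion (eggshell) gene clusters are amplified in follicle cells after the endocycles. A low S/G1 from late replication and one from fewer copies cannot be told apart, and neither can a high S/G1 from early replication and one from extra copies.

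The regions with the largest differences on the arms were the chorion gene clusters, which were higher in endocycling cells, and the histone gene repeat, which was lower. The sequences before 4 chorion genes and before 1 histone H1 copy are given to show what DNA lies under these values. Each is the 250 bases upstream of the annotated gene start on the plus strand, from the RefSeq sequence of dm6 (release 6). They belong to Cp18 (chr3L:8726541-8726790), Cp15 (chr3L:8728231-8728480), Cp36 (chrX:8479069-8479318), Cp38 (chrX:8481587-8481836) and His1:CG33837 (chr2L:21491291-21491540). Capitals mark the hexamer TCACGT, a motif known from chorion gene promoters.
Cp18: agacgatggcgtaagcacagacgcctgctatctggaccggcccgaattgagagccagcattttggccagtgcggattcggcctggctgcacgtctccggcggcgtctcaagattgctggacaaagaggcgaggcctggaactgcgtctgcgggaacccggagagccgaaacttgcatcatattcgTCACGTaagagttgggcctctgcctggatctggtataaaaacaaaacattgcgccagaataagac
Cp15: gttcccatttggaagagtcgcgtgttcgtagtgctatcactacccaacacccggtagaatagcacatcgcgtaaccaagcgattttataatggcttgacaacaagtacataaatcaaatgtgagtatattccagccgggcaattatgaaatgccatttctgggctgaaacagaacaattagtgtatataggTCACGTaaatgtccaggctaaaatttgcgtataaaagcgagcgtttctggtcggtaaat
Cp36: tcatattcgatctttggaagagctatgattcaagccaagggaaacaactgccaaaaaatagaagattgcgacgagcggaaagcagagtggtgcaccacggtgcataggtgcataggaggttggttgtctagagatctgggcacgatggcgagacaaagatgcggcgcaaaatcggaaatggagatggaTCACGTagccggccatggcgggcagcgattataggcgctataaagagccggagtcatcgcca
Cp38: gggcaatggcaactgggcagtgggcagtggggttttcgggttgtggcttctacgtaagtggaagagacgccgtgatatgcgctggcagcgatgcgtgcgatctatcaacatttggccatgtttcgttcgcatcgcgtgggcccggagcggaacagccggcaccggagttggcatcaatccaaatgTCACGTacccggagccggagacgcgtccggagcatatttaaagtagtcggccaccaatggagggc
His1:CG33837: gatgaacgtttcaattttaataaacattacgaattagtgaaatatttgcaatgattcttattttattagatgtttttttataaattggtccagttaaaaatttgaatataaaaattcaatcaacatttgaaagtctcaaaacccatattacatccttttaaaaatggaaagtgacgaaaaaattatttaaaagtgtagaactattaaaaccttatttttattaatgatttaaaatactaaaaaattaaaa
The hexamer was searched on both strands as TCACGT or ACGTGA. It was present in 7 of the 9 chorion promoters (not in those of Cp7Fa and Cp7Fb) and in 721 of 13922 promoters of the same length (5.18%). A match is a description of the letters and not a binding site. The His1 stretch was chosen because it shows the repetition. Its 250 bases occur 16 times without a mismatch on 2L, where 23 His1 copies are annotated.

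The values of each population were centred on their median over chromosome arm windows, and were not quantile normalized. The same wing disc G1 control stands under both populations and cancels in the difference, which leaves the log2 ratio of endocycling to mitotic S phase reads. Windows fell into 11440 on the chromosome arms, 1816 in pericentric heterochromatin and 135 on chromosome 4. Pericentric windows had their midpoint from 22 Mb on 2L, up to 5.7 Mb on 2R, from 23 Mb on 3L, up to 4.2 Mb on 3R and from 22 Mb on X (dm6 coordinates, counted from 1). A window was counted as higher or lower when the populations differed by over 0.1 on the log2 scale, and a run is at least 5 such windows in a row.

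Across all windows, the endocycling and mitotic profiles were close to each other. Pearson's coefficient between the centred profiles was 0.979 and Spearman's 0.942 over 13391 windows, and on the arms they were 0.969 and 0.930. These coefficients are across windows that overlap, and the profiles share their G1 control. The 2 populations put 8200 of 11440 arm windows (71.7%) in the same quartile class of their profile, 110 windows 2 classes apart and 1 window 3 classes apart. Of the latest quartile class of mitotic windows, 82.8% were also in the latest class of endocycling cells. After a running mean over 31 windows, the arms held 53 peaks with a prominence of at least 0.1 in endocycling cells and 60 in mitotic cells. Of these, 40 lay within 50 kb of each other (75.5% of the endocycling and 66.7% of the mitotic peaks). These counts depended on the smoothing. Over 11 windows there were 149 endocycling and 146 mitotic peaks, with 79.2% and 80.8% shared. Over 51 windows there were 32 and 41, with 68.8% and 53.7% shared.

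Endocycling cells were higher by over 0.1 in 364 windows (2.72% of all windows) and lower in 685 (5.12%), so that 1049 (7.83%) were past 0.1 in either direction and 12342 windows (92.2%) within it. The windows past 0.1 were distributed unevenly. On the arms, 269 of 11440 windows were higher (2.35%) and 63 lower (0.551%), and the difference had a median of 0.003, with 5th and 95th percentiles of −0.049 and 0.072. In pericentric heterochromatin 76 of 1816 windows were higher (4.19%) and 621 lower (34.2%). On chromosome 4, 19 of 135 windows were higher (14.1%) and 1 was lower. By number, lower windows therefore lay mainly in pericentric heterochromatin and higher windows on the arms. Chromosome 4 had the highest share of higher windows, but after quantile normalization this was 0.741%, below the 4.90% of pericentric windows. The share of higher windows depended on the range of the profiles: with the endocycling profile scaled to the mitotic spread, 1.68% were higher and 6.46% lower, and with the pair quantile normalized, 1.44% were higher and 1.84% lower.

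**Figure D1:**
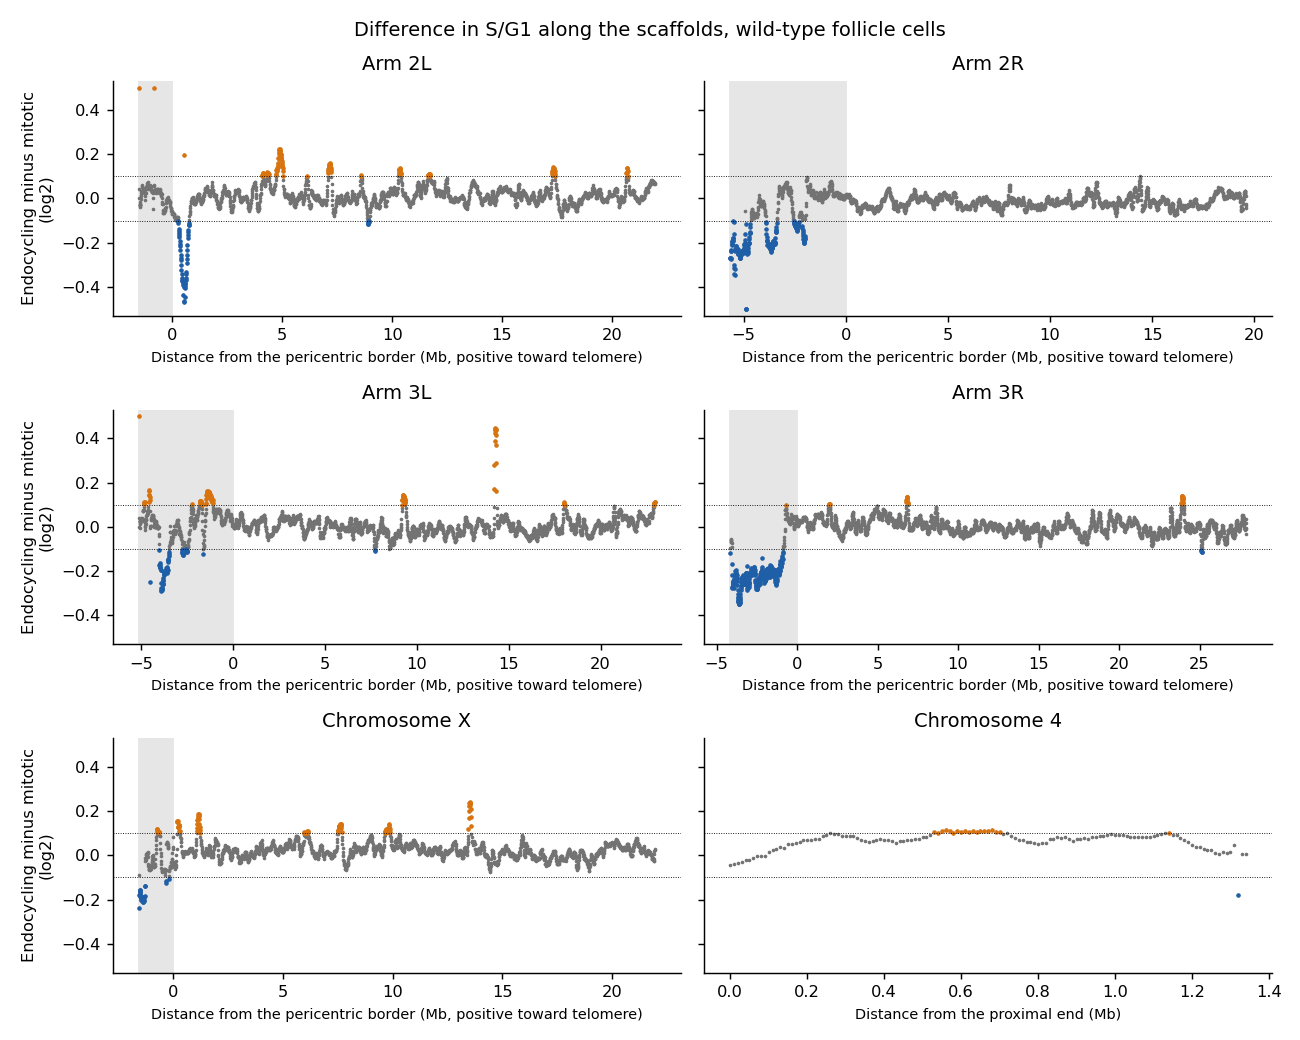
Endocycling minus mitotic log2 S/G1 in wild-type follicle cells (y axis) for each 100-kb window, against distance from the pericentric border in Mb (x axis, positive toward the telomere) or, on chromosome 4, from the proximal end. Orange points are windows higher and blue points windows lower by over 0.1 (dotted lines), grey points are within, pericentric heterochromatin is shaded, and points beyond 0.5 are drawn at 0.5. Narrow orange peaks stand on the arms, the histone repeat is the blue dip on 2L, and the proximal part of 3R is blue over most of its length.

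Along the arms, the median difference was 0.010 on 2L, −0.018 on 2R, close to 0 on 3L and 3R, and 0.019 on X. On X, 76.4% of arm windows were above 0, and 90 of 2195 were higher with none lower. On 2R, 25.4% were above 0, and no window of 1963 was past 0.1 in either direction. 2L had 108 higher and 57 lower windows, 3L had 44 higher and 2 lower, and 3R had 27 higher and 4 lower. The difference changed gradually along the arms: its correlation with itself along the arms was 0.598 at 100 kb, where windows no longer overlap, 0.357 at 200 kb and 0.097 at 1000 kb.

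The chorion cluster on 3L, which encodes the eggshell proteins Cp15, Cp16, Cp18 and Cp19 within 3L:8726791-8732599, had the largest positive difference on the arms. Its window (3L:8680001-8780000) was at 0.86 in endocycling cells and 0.41 in mitotic cells, a difference of 0.45 or 1.36-fold. Wing discs were at 0.08 in the same window. The run of higher windows covered 13 windows from 8620001 to 8840000, with a mean of 0.69 in endocycling cells and 0.33 in mitotic cells. The level was thus above the arm median in both follicle cell populations, and higher in the endocycling one.

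The chorion cluster on X carries Cp7Fa, Cp7Fb, Cp7Fc, Cp36 and Cp38 within X:8470888-8483311. In the window with its largest difference (X:8440001-8540000) the level was 0.41 in endocycling cells and 0.17 in mitotic cells, a difference of 0.24 or 1.18-fold. Its run of 13 windows from 8370001 to 8590000 had means of 0.31 in endocycling cells and 0.11 in mitotic cells. The 9 genes of the 2 clusters share 3 windows, all of them higher. About 200 kb to one side of the X cluster, a block with sharp edges stood at 0.45 in endocycling cells and 0.39 in mitotic cells (at −197.1 kb), with wing discs at −0.11. It was chosen after its values were seen. Its difference was 0.06, so it was high in both populations and did not pass 0.1.

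**Figure D2:**
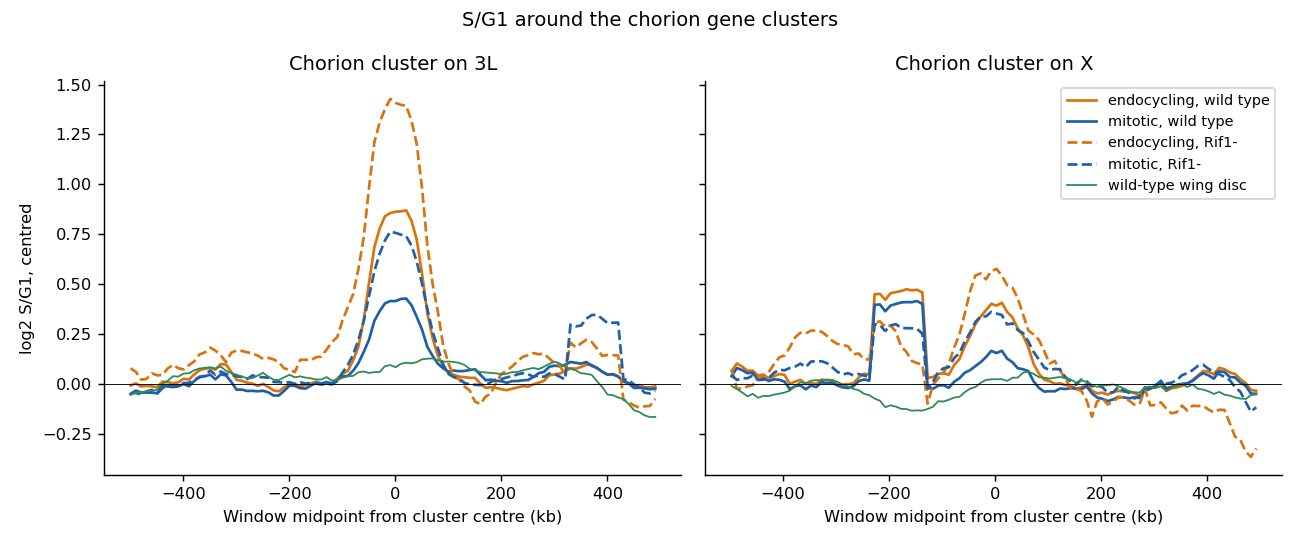
Centred log2 S/G1 (y axis) of 100-kb windows by distance of the window midpoint from the centre of the chorion clusters on 3L and X in kb (x axis), with 1 mean per line. Solid orange is endocycling and solid blue mitotic wild type, dashed lines are Rif1- cells, and green is the wild-type wing disc. At the centre on 3L the wild-type lines stand at 0.86 (endocycling) and 0.41 (mitotic), and on X at 0.39 (endocycling) and 0.15 (mitotic).

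Genes known to be amplified to a smaller extent in follicle cells had smaller differences. Of 6 such genes, Vm34Ca, which encodes a vitelline membrane protein, was higher, at 0.21 in endocycling cells and 0.10 in mitotic cells. The windows of yellow-g and yellow-g2 differed by 0.09 each, those of CG13113 and CG13114 by 0.08 each, and that of CG7337 by 0.02. Among 10 eggshell and yolk genes outside the major clusters, which lie in 6 windows, none passed 0.1, and their median difference was 0.02 against 0.002 over all windows. Of all arm windows, 97.1% did not pass 0.1 either. The differences of the Vm26A genes, which encode vitelline membrane proteins, were 0.02, and that of Yp3, a yolk protein gene, was 0.06.

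None of the windows of the 14 genes for replication initiation and timing factors passed 0.1, with differences between −0.04 and 0.05. They include Orc1 and Orc2, which encode subunits of the origin recognition complex, Mcm2, which encodes a subunit of the replicative helicase, Rif1 and SuUR, whose product restrains replication of heterochromatin in polyploid cells. The window of Rif1 was at −0.02 in endocycling cells and 0.01 in mitotic cells. None of 12 cell cycle regulators passed either, and the largest difference among them was 0.09 for Cdk1, the mitotic kinase. The gene itself lies within a higher run on 2L from 10230001 to 10420000, which has a mean difference of 0.11. None of 7 genes for the Notch pathway and transcription factors of the switch to endocycles and none of 9 Hox genes passed. Apart from Cdk1, the differences of these 4 lists were between −0.05 and 0.05. Of all arm windows, 97.1% were within 0.1 as well. The counts of these lists are near that share and set none of them apart.

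The other higher runs on the arms were mostly deep valleys of S/G1 that were shallower in endocycling cells. Of the 19 higher runs on the arms, 16 had a level below the arm median in both populations, and 15 of these were in the latest 5% of arm windows by the mean of both. Their means were between −0.37 and −0.07 in endocycling cells, against −0.54 to −0.17 in mitotic cells. The mean difference was between 0.11 and 0.17, and 8 of the 16 lay on 2L, 3 on X, 3 on 3L and 2 on 3R. In wing discs, 14 of the 16 were below the arm median as well.

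The longest of these runs was on 2L from 16920001 to 17340000, 33 windows over beat-IIIa, beat-IIIb and beat-IIIc, members of a family of immunoglobulin-domain proteins in axon guidance. It had a mean of −0.37 in endocycling cells and −0.54 in mitotic cells. At its extreme (2L:17080001-17180000) the levels were −0.47 in endocycling and −0.70 in mitotic cells. A run on X from 20720001 to 20970000 over shakB, which encodes a gap junction protein, and Npc1b, which encodes a sterol transporter of the gut, had means of −0.22 in endocycling cells and −0.37 in mitotic cells. Both runs had a low S/G1 in both populations, and it was less low in endocycling cells.

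A run on 2L from 14730001 to 14970000 over side-II, an immunoglobulin-domain gene, had means of −0.36 in endocycling cells and −0.50 in mitotic cells. On X from 14270001 to 14540000, over dpr8 (a cell surface immunoglobulin protein) and na (a sodium leak channel), they were −0.13 in endocycling cells and −0.25 in mitotic cells. On 3L from 13580001 to 13860000, over bru3 (an RNA-binding protein) and Hml (a blood cell protein), they were −0.31 in endocycling cells and −0.44 in mitotic cells. Higher windows held fewer genes than other arm windows: the higher windows on the arms had a median of 4 protein-coding genes and 40.8% GC, against 11 genes and 42.6% GC in arm windows within 0.1. This contrast was not matched for level, and 214 of the 269 higher windows were in the latest decile of arm windows. Over all arm windows the difference had coefficients near 0 with genes per window (Pearson −0.047, Spearman 0.059). With GC content they were 0.063 and 0.058. Runs on 3R from 28020001 to 28250000 (CG34354 and trv) and on 2L from 11560001 to 11760000 (kek2, a transmembrane protein) had mean differences of 0.13 and 0.12. With the pair quantile normalized, the mean differences at bru3, dpr8 and na, CG34354, and kek2 were 0.08, 0.09, 0.07 and 0.06, under the threshold.

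The change of the difference with level showed the same pattern over the arms as a whole. Arm windows were ordered by the mean of both profiles. In the latest decile the median difference was 0.05, with 214 of 1144 windows higher and none lower, while in the earliest decile it was −0.01, with 40 higher and 44 lower. At levels between −0.5 and −0.3, the median was −0.29 in endocycling cells and −0.41 in mitotic cells, and 125 of 158 windows (79.1%) were higher. The spread of arm windows within 1 of the median was 0.103 in endocycling cells and 0.119 in mitotic cells (SD across windows), a ratio of 0.869. Over all arm windows the ratio was 0.940, and by the interquartile range 0.878. The arm profile of endocycling cells was therefore flatter by each of these measures.

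**Figure D3:**
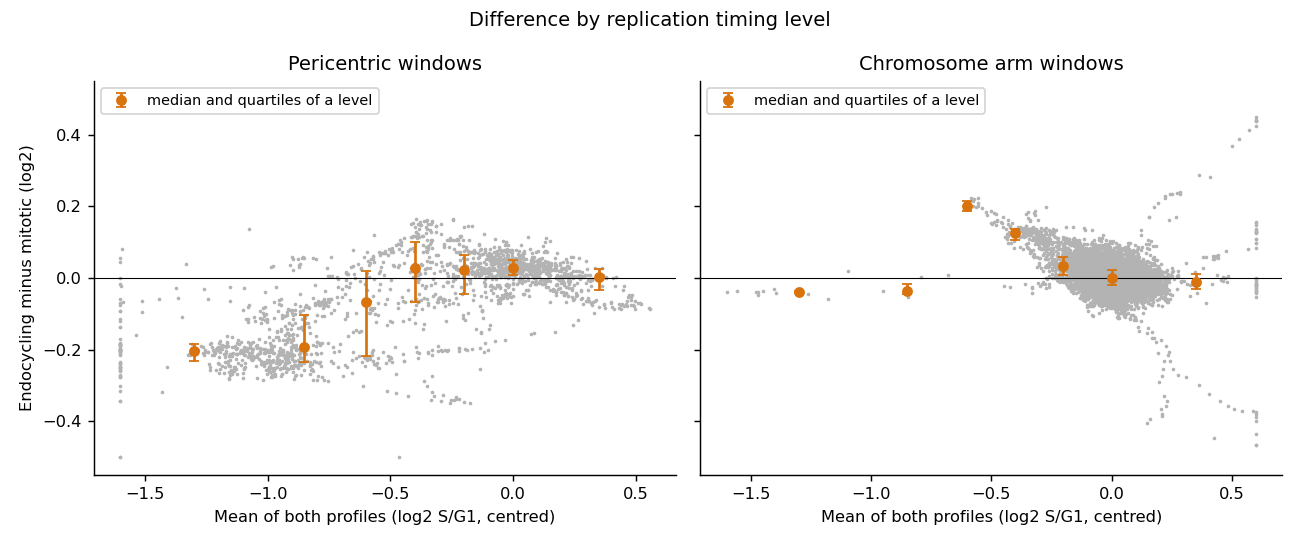
Endocycling minus mitotic log2 S/G1 (y axis) against the mean of both centred profiles (x axis) for pericentric windows (left) and arm windows (right), with grey points for windows and orange points for the median and quartiles of windows at each level. Points beyond the plotted range are drawn at its edge. At levels from −0.5 to −0.3 the arm median is 0.12 and the pericentric median 0.03, while pericentric windows below −1 have a median of −0.21.

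A higher run on X from 21650001 to 21860000 differed from these valleys, with means of 0.99 in endocycling cells and 0.86 in mitotic cells and wing discs at −0.19. The gap to wing discs cannot be told apart from the different libraries and read lengths. The run covers flam, a piRNA cluster that silences transposons in follicle cells, and no protein-coding gene. The window of flam itself was at 1.14 in endocycling cells and 1.03 in mitotic cells. With each scaffold centred on its own median, its difference of 0.11 was 0.09.

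The histone gene repeat, 111 annotated genes for histones H1, H2A, H2B, H3 and H4 within 2L:21416953-21541681, was lower in endocycling cells. Of 23 windows that overlap the repeat, 22 were lower, with a median of 0.29 in endocycling cells and 0.66 in mitotic cells and a median difference of −0.38. The lowest difference was −0.47, in the window 2L:21440001-21540000, at 0.45 in endocycling cells and 0.92 in mitotic cells. The window 2L:21430001-21530000 went the other way, at −0.17 in endocycling cells and −0.37 in mitotic cells, where wing discs were at −2.24. The repeated copies share their sequence, and reads with more than 1 equally good position have a low mapping quality and were largely removed, so levels inside the repeat rest on the stretches that stay unique.

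The lower values extended beyond the repeat. In 28 lower windows that do not overlap it (12 on the left and 16 on the right, between 21200001 and 21800000), the median was 0.09 in endocycling cells and 0.28 in mitotic cells, with a median difference of −0.18. Wing discs had a median of −0.01 in these windows. The flanks carry Mondo, a glucose-responsive transcription factor, Hr39, a nuclear receptor, and Ac3, an adenylate cyclase. Mitotic cells thus stood above the arm median over a broad region around the repeat, and endocycling cells less so. The remaining lower run on the arms, on 2L from 13010001 to 13170000 over mTor, a growth-controlling kinase, and Sfmbt, a Polycomb group gene, had means of 0.01 in endocycling cells and 0.12 in mitotic cells.

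**Figure D4:**
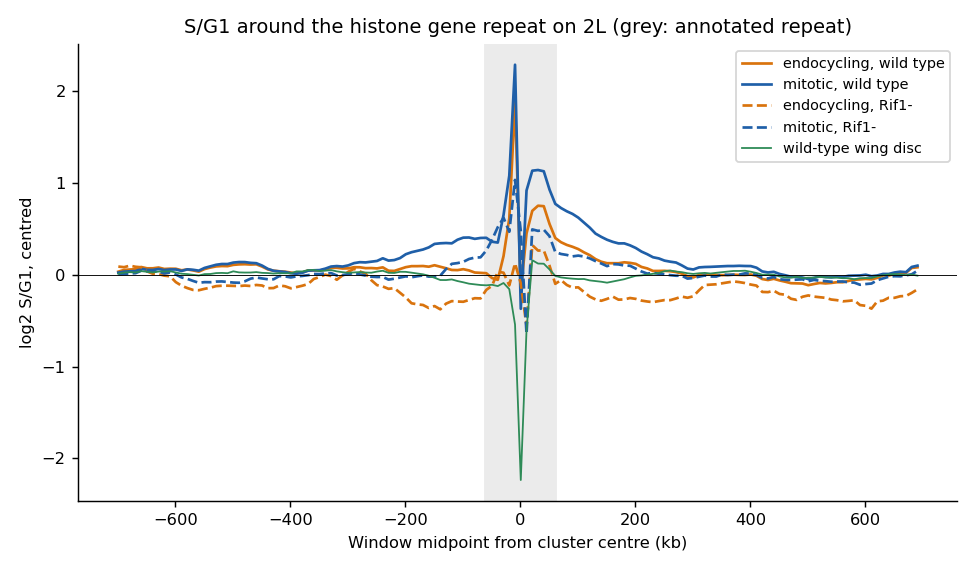
Centred log2 S/G1 (y axis) of 100-kb windows by distance of the window midpoint from the centre of the histone gene repeat in kb (x axis), with 1 mean per line. Orange is endocycling and blue mitotic, solid for wild type and dashed for Rif1-, green is the wild-type wing disc, and the annotated repeat is shaded. The solid mitotic line lies above the solid endocycling line in all but 1 of the 23 windows over the repeat, and on both flanks.

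In pericentric heterochromatin the lower windows were mostly those with the lowest S/G1. Among windows whose mean over both profiles was below −1, 258 of 293 were lower (88.1%), with medians of −1.26 in endocycling cells and −1.05 in mitotic cells. Between −1 and −0.7, 243 of 321 were lower (75.7%). Between −0.5 and −0.3 the median difference was 0.03, with 42 of 168 windows higher and 33 lower. Pericentric windows under −1 numbered 425 in endocycling cells and 196 in mitotic cells, and the SD across pericentric windows was 0.605 in endocycling and 0.532 in mitotic cells. The lowest pericentric windows were thus lower still in endocycling cells. On the arms, the 11 windows below −1 and the 3 between −1 and −0.7 had median differences of −0.04 each, and none was past 0.1. The median over all pericentric windows was −0.28 in endocycling cells and −0.27 in mitotic cells, and the median difference of −0.02 was 0.01 after quantile normalization. With that normalization, 10.2% of pericentric windows were lower in place of 34.2%.

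The pericentric part of 3R held 319 of the 621 lower windows. Its median was −1.10 in endocycling cells and −0.87 in mitotic cells, with 319 of 416 windows lower (76.7%). A single run from 100001 to 3370000 covered 318 windows with means of −1.13 in endocycling cells and −0.90 in mitotic cells, over Myo81F (a myosin) and spok (an enzyme of ecdysone synthesis). Without 3R, 21.6% of pericentric windows were lower, 72 of 98 windows below −1 among them, and the median difference was 0.003. The run on 3R had a mean difference of −0.23, which was −0.06 after quantile normalization.

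The pericentric part of 2R had 193 of 566 windows lower and none higher, in blocks separated by windows near 0. A run from 1 to 830000 had means of −1.11 in endocycling cells and −0.87 in mitotic cells, with a mean difference of −0.23 that was −0.06 after quantile normalization. One from 1740001 to 2370000 had −0.61 in endocycling cells and −0.42 in mitotic cells. A run from 750001 to 1090000 had the lowest mean difference of the pericentric runs (−0.28), with −0.71 in endocycling cells and −0.43 in mitotic cells. It held the window with the lowest difference of all (−0.97), 2R:750001-850000, at −2.38 in endocycling cells and −1.41 in mitotic cells. The windows from 760001 and 770001 differed by −0.83 and −0.76, and the Rif1- difference was −0.41 in each of these windows. They share most of their sequence, their read counts are unknown, and they weigh on the mean and rank of the run. The gene rl, the ERK kinase of receptor signalling, lies at the edge of this run, and its own window was at 0.46 in endocycling cells and 0.51 in mitotic cells. A very low block and a high window thus lay close together in both populations.

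The pericentric part of 3L had 61 windows higher and 75 lower of 517. The lower run from 26440001 to 27070000 carried no annotated gene and had means of −0.91 in endocycling cells and −0.70 in mitotic cells. The longest higher run, from 24060001 to 24530000 over Snap25 (a synaptic vesicle fusion protein) and nvd (an enzyme of ecdysone synthesis), had −0.25 in endocycling cells and −0.39 in mitotic cells. A run from 24670001 to 24860000 over scro, a homeobox gene, had −0.35 in endocycling cells and −0.46 in mitotic cells. These higher runs had levels like those of the arm valleys. A further higher run on 3L from 27500001 to 27650000, without an annotated gene, had a mean difference of 0.14. After quantile normalization, the mean differences were −0.08 in the lower run, 0.09 at Snap25 and nvd and 0.07 at scro, within 0.1.

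The pericentric part of X had 12 windows higher and 34 lower of 160, and its most proximal run, from 23230001 to the end at 23542271, which was singled out after its values were seen, had means of −1.99 in endocycling cells and −1.80 in mitotic cells. A higher run from 22580001 to 22790000 over Cda4 had −0.17 in endocycling cells and −0.28 in mitotic cells, and its mean difference of 0.11 was 0.07 after quantile normalization. The pericentric part of 2L had 2 higher and no lower windows of 157, with a median difference of 0.03. One of these 2 windows, 2L:22790001-22890000, was at −3.02 in endocycling cells and −3.55 in mitotic cells, with wing discs at −0.21. The other, 2L:23510001-23513712, is a short window at the scaffold end, at −3.89 in endocycling cells and −4.39 in mitotic cells. At such low levels, with unknown read counts, the precision of both differences cannot be judged. Among genes of heterochromatin, the window of Parp, the poly(ADP-ribose) polymerase gene, was at 0.02 in endocycling cells and −0.08 in mitotic cells, a difference of 0.10 that was 0.09 after quantile normalization. The windows of lt, Dbp80 and su(f) differed by 0.03, 0.05 and −0.06. Of the 6 listed genes in or next to pericentric heterochromatin, Parp and flam were higher and none was lower by over 0.1. The window of flam is an arm window, and that of Parp was barely past the threshold. Of all pericentric windows, 4.19% were higher and 34.2% lower.

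Chromosome 4, a small chromosome largely packaged as heterochromatin, was higher in endocycling cells over most of its length. Its median was 0.03 in endocycling cells and −0.05 in mitotic cells, with a median difference of 0.07 (quartiles 0.06 and 0.09), and 124 of 135 windows (91.9%) were above 0. This is relative to the arm median. Centred on the median of chromosome 4 itself, the median difference was −0.01 and no window was higher by over 0.1. One run of 18 windows from 530001 to 800000 had means of −0.03 in endocycling cells and −0.14 in mitotic cells.

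Within that run, ey, the Pax6 gene of eye development, was in a window at −0.05 in endocycling cells and −0.16 in mitotic cells. The windows of gw, a gene for microRNA silencing, and bt, a giant muscle protein gene, differed by 0.11 and 0.10. The windows of toy, zfh2, Sox102F and Asator, of which the first 3 encode transcription factors, differed by 0.06 to 0.08 and did not pass 0.1. Near the proximal end, ci, the Hedgehog pathway transcription factor, was at 0.29 in endocycling cells and 0.33 in mitotic cells, and pan, the transcription factor of Wnt signalling, at 0.30 in endocycling cells and 0.32 in mitotic cells. In wing discs the windows of ci and pan were at 0.05 and 0.06. The proximal end thus had a high S/G1 in both follicle cell populations, and the S/G1 in the middle of the chromosome was less low in endocycling cells. Whether these levels reflect timing, copy number or the different libraries cannot be told apart. After quantile normalization the differences of ey, gw and bt and the mean of the run were 0.09 each.

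At the telomeres, the end window of 3L was at −0.13 in endocycling cells and −0.24 in mitotic cells, a difference of 0.11. Those of 2L, 2R, 3R, X and 4 differed by 0.06, 0.03, −0.01, 0.03 and 0.03. None of these 5 passed 0.1.

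In Rif1- follicle cells the difference between endocycling and mitotic cells had more windows past 0.1 than in wild type. Rif1 delays the replication of late sequences through the phosphatase PP1, and its loss was among the mutant conditions of the study. The wild-type and Rif1- differences share no S phase sample. In Rif1- cells, 2402 windows were higher in endocycling cells (17.9%) and 3547 lower (26.5%). The coefficient between the wild-type and Rif1- differences was 0.028 over all windows (Pearson), 0.188 on the arms and −0.323 in pericentric heterochromatin. Of the 364 windows higher in wild type, 29 were higher in Rif1- cells (7.97%) and 195 were lower (53.6%). Of the 685 windows lower in wild type, 264 were lower in Rif1- cells (38.5%) and 157 were higher (22.9%). With 1 mean per population, the difference between genotypes was not tested.

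The chorion clusters and most windows at the histone repeat differed in the same direction in both genotypes. At the chorion window on 3L the difference was 0.45 in wild type and 0.65 in Rif1- cells, where endocycling cells were at 1.41 and mitotic cells at 0.76. At the X cluster it was 0.24 in wild type and 0.20 in Rif1- cells. Of the 22 lower windows over the histone repeat, 21 were lower in Rif1- cells, the exception being 2L:21440001-21540000 at 0.09, and the window 2L:21430001-21530000, higher in wild type, had a Rif1- difference of −0.57. In the 28 windows beside the histone repeat, Rif1- endocycling cells were lower in 28 of 28, with medians of −0.28 in endocycling and 0.01 in mitotic cells. Of the 63 arm windows lower in wild type, 57 (90.5%) were lower in Rif1- cells, where 22.2% of all arm windows were lower. The 63 include the 22 windows over the repeat and the 28 beside it. They are thus mostly overlapping windows of that locus, already described above, and not separate observations.

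The late valleys, chromosome 4 and the long run on 3R differed in opposite directions. Of the 10 lower runs in pericentric heterochromatin, 8 had a mean difference of the same sign in Rif1- cells and 2 the opposite sign. All pericentric windows had a median Rif1- difference of −0.09, so a negative sign was common there. Of the 621 pericentric windows lower in wild type, 207 (33.3%) were lower in Rif1- cells, against 48.2% of all pericentric windows. Another 156 (25.1%) were higher, against 13.5% of all. In the 16 valleys of the arms the Rif1- difference was between −0.26 and −0.01, opposite in sign to wild type. The latest decile of arm windows had a median Rif1- difference of −0.045, and arm windows at wild-type levels between −0.5 and −0.3 had one of −0.13. A negative sign was therefore common at late levels and does not set these valleys apart. At beat-IIIa, beat-IIIb and beat-IIIc the Rif1- levels were −0.22 in endocycling cells and 0.03 in mitotic cells. On chromosome 4 the Rif1- median difference was −0.26, with −0.30 in endocycling and −0.06 in mitotic cells. In the run on 3R the Rif1- levels were 0.03 in endocycling cells and −0.04 in mitotic cells, close to the arm median in both. The 3L run from 26440001 was likewise near the arm median in Rif1- cells, at −0.01 in endocycling cells and 0.04 in mitotic cells.

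**Figure D5:**
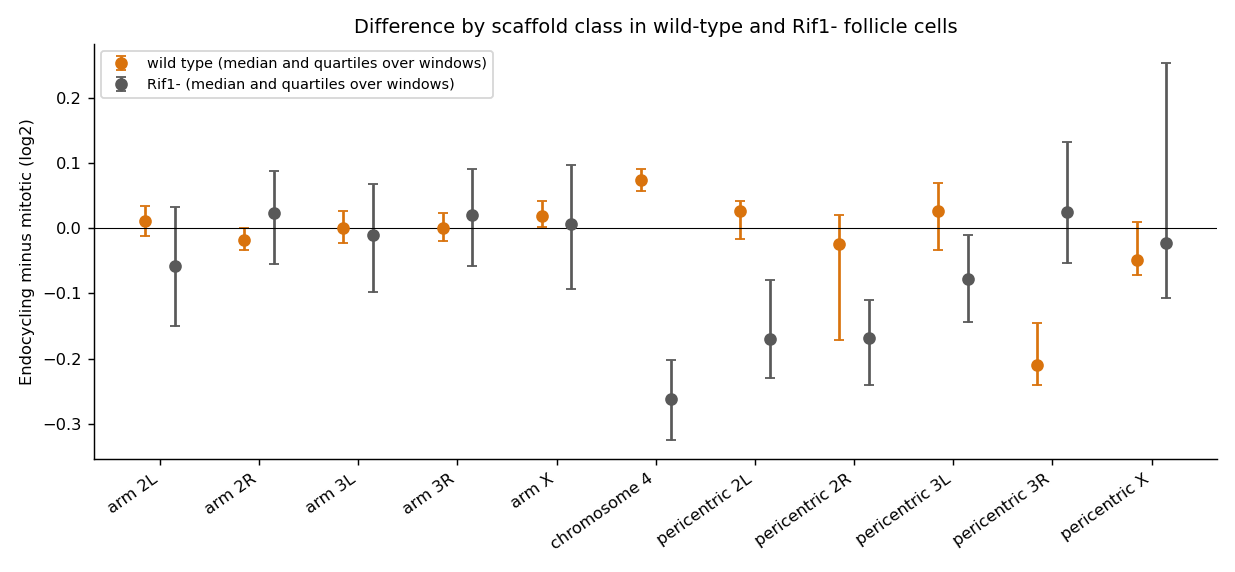
Endocycling minus mitotic log2 S/G1 (y axis) for the arm and pericentric windows of each scaffold and for chromosome 4 (x axis), in wild type (orange) and Rif1- follicle cells (grey). Points are medians and bars the quartiles across windows, which are not an error over samples. On chromosome 4 the medians are 0.07 in wild type and −0.26 in Rif1-, and in pericentric 3R −0.21 in wild type and 0.02 in Rif1-.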

How the data were processed

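DNA of sorted S phase follicle cell nuclei was sequenced (NEBNext Ultra II libraries, paired ends). Wing disc samples, the G1 control included, were ThruPLEX libraries read as shorter single ends. The authors aligned reads to dm6 with Bowtie 2 (2.3.2), kept those of sufficient mapping quality with SAMtools (1.9), counted them in 100-kb windows every 10 kb, normalized to depth, divided by wing disc G1 and averaged the S/G1 ratios of the 2 samples. The deposited values are log2 ratios, 1 mean per condition, not quantile normalized. Reads per sample or window are not part of the values, so precision cannot be stated. Whether the samples came from separate dissections was not stated in the labels used here.

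Each column was centred on its median over arm windows. Python 3.11.15, numpy 2.4.6, pandas 2.3.3, scipy 1.17.1 and matplotlib 3.10.9 were used. No test was run on means. The members, gene lists and naming rules were chosen with earlier results of these data known. Named were the 10 runs with the largest mean difference per direction on arms, 5 in pericentric windows and on chromosome 4, the longest run of each class, telomere windows and listed genes, and the proximal run on X and the block beside the X chorion cluster were added after their values were seen. A listed gene had the window with the nearest midpoint. Flanking genes of the histone repeat were named from its runs. Gene positions and promoter sequences are RefSeq's, whose chromosome lengths equal the last window ends. The code that calls windows was checked on simulated data (200 of 200 windows changed by 0.3 recovered, 0 others called). The simulated noise was small and independent between windows. The check therefore covers the code only and gives no rate of false or missed calls for these data. The RNA libraries were not used here, nor was 1 sample whose labels disagree.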

Additional observations from a re-analysis of the deposited data

Results flagged for a closer look

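In 4 classes of windows outside the arms the difference between endocycling and mitotic cells had opposite signs in wild-type and Rif1- follicle cells, by their medians, and the medians lay over 0.1 apart. Arms 2L, 2R, 3L and 3R also had medians of opposite sign, each within 0.1 of 0. On chromosome 4 the wild-type median minus the Rif1- median was 0.335 (0.07 in wild type and −0.26 in Rif1- cells). In pericentric 2L it was 0.195 (0.03 in wild type and −0.17 in Rif1- cells) and in pericentric 3L 0.104 (0.03 in wild type and −0.08 in Rif1- cells). In pericentric 3R it was −0.234 (−0.21 in wild type and 0.02 in Rif1- cells). The difference between genotypes was not tested, since 1 mean per population is all that the values hold.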

How the results depend on the processing

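Over all windows, 2.72% were higher and 5.12% lower. After quantile normalization of the pair these were 1.44% and 1.84%, at a threshold of 0.2 they were 0.217% and 3.24%, and at 0.05 they were 11.9% and 10.1%. With the endocycling profile scaled to the mitotic spread, 1.68% were higher. The median of chromosome 4 was −0.0094 when centred on itself, which follows from that centring, against 0.074. The ratio of arm spreads was 0.940 over all arm windows, 0.869 within 1 of the median and 0.878 by interquartile range. Coefficients between the wild-type and Rif1- differences on the arms alone were 0.188 (Pearson) and 0.166 (Spearman), against 0.028 and 0.069 over all windows. The causes of the other shifts were not tested. Under quantile normalization 11 of 23 named runs and the windows of 4 genes (ey, bt, gw and Parp) fell under 0.1. With scaffolds centred on themselves, 2 runs and 6 gene windows crossed it. No value past 0.1 changed sign under these alternatives. Leaving out windows shorter than 100 kb, leaving out pericentric 3R and using the interquartile range were chosen after seeing the data. No paired analysis was possible because the values are means over samples, and no sample could be left out for the same reason. Read depth is unknown, so the precision of a window, least of all in the lowest ones, cannot be judged.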

Other observations

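Of the 60 windows at scaffold ends that are shorter than 100 kb, 2 were higher and 10 lower. The largest positive difference of all windows was in one of them, at the end of 3L (28110001 to 28110227), at −0.72 in endocycling cells and −1.50 in mitotic cells. The last lower window on chromosome 4 (1320001 to 1348131) was at 2.70 in endocycling cells and 2.88 in mitotic cells, with wing discs at 0.03.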
